A study of Mus musculus with 24 samples.

Results

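The 10 genes described here encode the FOXO transcription factors FOXO1, FOXO3 and FOXO4 and proteins that raise or lower signaling from insulin and growth factor receptors through phosphoinositide 3-kinase (PI3K) and the kinase AKT. They were chosen by name (*Foxo1*, *Foxo3*, *Foxo4*, *Insr*, *Irs1*, *Irs2*, *Pik3ip1*, *Ccng2*, *Sesn1* and *Sesn3*), and each was found once among the 49315 genes of the count table. All 10 were among the 16070 genes with enough counts to be tested. RNA was sequenced from MS03 cells, a murine *Nf2*-/- Schwann cell (SC) line used as a model of schwannoma, after 24 hours with DMSO or with 1 of 7 compounds that target focal adhesion kinase (FAK) dissolved in DMSO. Defactinib, VS-4718, GSK2256098 and IN10018 are FAK kinase inhibitors and were used at 1 μM. PROTAC FAK degrader 1 at 1 μM and GSK215 and BSJ-04-0146 at 0.1 μM are PROTACs, molecules in which a FAK inhibitor is joined to a group that recruits an E3 ubiquitin ligase so that FAK is degraded. Each of the 8 groups had 3 libraries, labelled as biological replicates, all groups carried the *Nf2*-/- genotype, and no cells with intact *Nf2* were among the 24 libraries. The line was grown alone in medium with serum.

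In cells with active PI3K, AKT phosphorylates the FOXO proteins and holds them outside the nucleus. When AKT activity falls, FOXO proteins enter the nucleus and switch on genes that slow growth and genes that restore sensitivity to the pathway, including the insulin receptor and its adaptor proteins. For this reason transcripts such as *Insr*, *Irs2*, *Ccng2*, *Sesn3* and *Pik3ip1* are often read beside AKT activity, although each is also under other control. Phosphorylated AKT, FOXO protein and FOXO location were not measured in these libraries. Since the RNA came from whole cultures, fewer cells of a kind and less RNA per cell cannot be told apart.

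Forkhead factors bind DNA at a core written GTAAACA, and the related insulin response element core is CAAAACA. Both were searched on either strand from 250 bases before to 50 bases after the start of each gene, in RefSeq promoters on GRCm38.p6. Of the 10 genes, 8 had 9 promoters in the table. GTAAACA was found in 1 of these 9 promoters (*Sesn1*) and CAAAACA in 3 (*Irs1*, *Irs2* and *Ccng2*), whereas 3.65% and 6.28% of all 32851 promoters held them, and 9.63% held either. The matches are shown with 10 bases on each side in the direction of the gene, with the core in capitals (TGTTTTG and TGTTTAC are the cores read from the other strand), at chr1:82291534-82291560, chr1:82291455-82291481, chr8:11008950-11008976, chr5:93267547-93267573 and chr10:41810586-41810612 in this order. The RefSeq starts that set these windows differ from the gene starts of the GENCODE annotation given further on, so the *Ccng2* and *Sesn1* sites lie inside the GENCODE spans of those genes. A match is a description of the letters in this window and not a measured binding site.
Irs1, 111 bases before the start (- strand): ctccgtcacgTGTTTTGctcctctgga
Irs1, 32 bases before the start (- strand): agccgccgctTGTTTTGgttggggctc
Irs2, 37 bases before the start (- strand): agtcacgtgtTGTTTTGctcttagttc
Ccng2, 16 bases before the start (+ strand): gtcgcagactCAAAACAaaaacaaggg
Sesn1, 23 bases after the start (+ strand): aaccttctacTGTTTACcagccttttg

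The 250 bases before the start of *Irs1* (chr1:82291440-82291689, - strand) and of *Irs2* (chr8:11008930-11009179, - strand) are shown because these paralogous adaptors share the core and went in opposite directions with 1 compound, as given below.
Irs1: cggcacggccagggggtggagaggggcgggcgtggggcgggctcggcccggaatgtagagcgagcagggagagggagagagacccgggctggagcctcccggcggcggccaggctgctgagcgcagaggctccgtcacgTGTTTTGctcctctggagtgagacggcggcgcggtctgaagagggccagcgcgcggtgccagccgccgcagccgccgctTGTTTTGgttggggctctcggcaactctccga
Irs2: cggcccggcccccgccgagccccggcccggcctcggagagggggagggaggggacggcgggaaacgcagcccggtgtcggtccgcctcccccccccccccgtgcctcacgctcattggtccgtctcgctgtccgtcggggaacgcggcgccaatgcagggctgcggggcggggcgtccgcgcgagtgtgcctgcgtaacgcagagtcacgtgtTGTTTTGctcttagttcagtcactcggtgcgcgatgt

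The libraries held 14472462 to 27449516 counts, and the median was lower over the PROTAC libraries (17794597) than over the DMSO libraries (25126532). Of 13 SC markers, 12 had over 10 counts in some library, but *S100b* had at most 18 counts. The summed level of the SC markers was 287 to 292 CPM (counts scaled to a common library size with TMM factors) with DMSO, 147 to 154 with PROTAC FAK degrader 1, 518 to 531 with GSK215 and 457 to 482 with BSJ-04-0146, and *Sox10* moved from 20.1 CPM with DMSO to 12.2, 97.5 and 97.5 CPM with these 3 PROTACs. The part of this shift in SC genes in the changes described here was not tested. Of 7 macrophage markers, *Adgre1*, *Ptprc* and *Itgam* had at most 1 count in any library, and *Cd68* rose from 3.35 to 10.9 CPM with PROTAC FAK degrader 1. The summed macrophage level was 3.89 to 4.14 CPM with DMSO and 11.3 to 12 with that compound, and most of it was *Cd68* in both. *Csf1r*, with at most 20 counts in any library, went from 0.443 to 0.288 CPM. Of 5 fibroblast markers, *Lum* had no counts and *Dcn* at most 3. The sum of the 5 was 417 to 440 CPM with DMSO and 322 to 552 CPM elsewhere. Most of it was *Col1a1*, with 392 CPM in DMSO. *Pdgfrb* had 23.2 CPM with DMSO, 66.7 with GSK215, 45.6 with BSJ-04-0146 and 30.5 with PROTAC FAK degrader 1. *Pdgfra* had 12.4, 26.3, 26 and 8.76 CPM in the same order.

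Each compound was compared with DMSO by edgeR's quasi-likelihood test, with *P* values adjusted over all genes tested (Benjamini-Hochberg, threshold 0.05). The 7 comparisons share the same 3 DMSO libraries and are given side by side. With PROTAC FAK degrader 1, 9 of the 10 genes rose and 1 fell, where 34.1% of all genes rose and 32.7% fell. VS-4718 raised 7 and lowered 1 (20.4% and 18.9% of all genes). GSK215 raised 7 and lowered 2 (27.4% and 27.2%), and BSJ-04-0146 raised 6 and lowered 3 (27.7% and 26.9%). Defactinib raised 3 and lowered 1 (11.4% and 11%), and GSK2256098 also raised 3 and lowered 1 (6.36% and 6.09%). IN10018 raised 3 and lowered 0 (6.44% and 6.85%), with *Insr* and *Irs1* below DMSO at an unadjusted *P* of 0.0104 and 0.0146 by edgeR. DESeq2 called 2 genes higher and 0 lower with IN10018, and a fit of the IN10018 and DMSO libraries alone called *Insr* and *Irs1* lower (adjusted *P* = 0.0106 and 0.0331). The median log2 fold change of the 10 genes was 0.63 with PROTAC FAK degrader 1, 0.32 with BSJ-04-0146 and between 0.0653 and 0.20 with the other compounds, beside medians of all genes between -0.00444 and 0.0211. Across the 70 tests, 47 passed the threshold. With 3 libraries against 3, an exact permutation test of a single gene cannot go below 0.1 (two-sided).

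**Figure D1:**
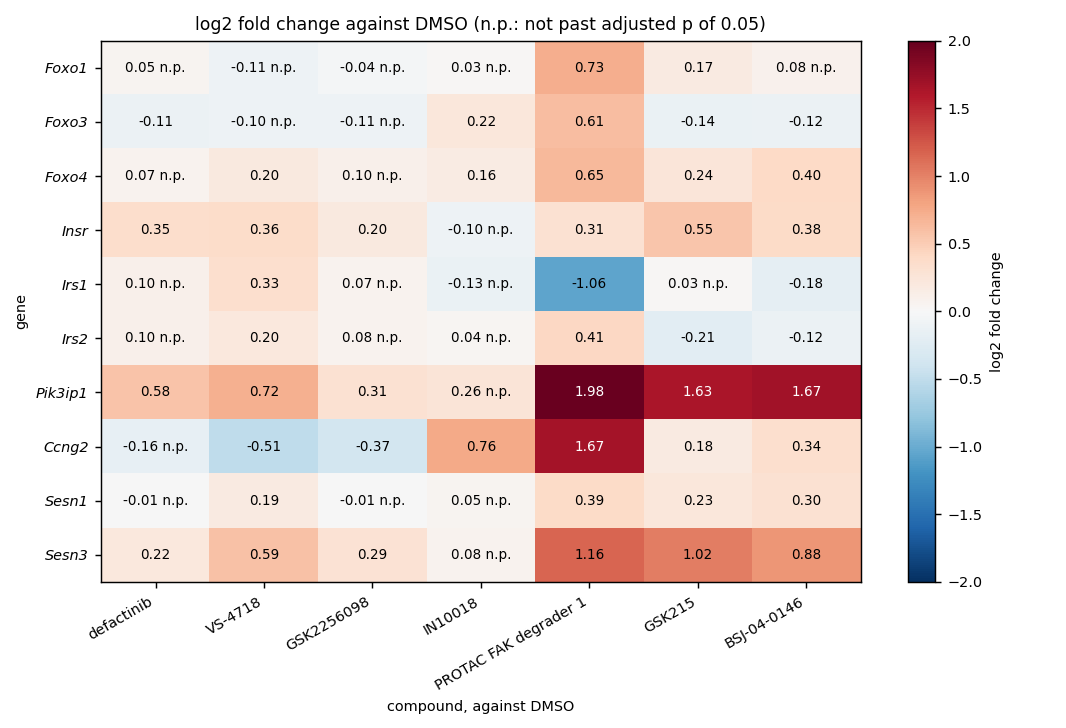
Heat map of the log2 fold change of each gene (rows) with each compound (columns) against DMSO, from edgeR over 3 libraries per group, with "n.p." on values that did not pass an adjusted P of 0.05. Pik3ip1 ranged from 0.26 to 1.98 and was above DMSO with each of the 7 compounds, passing the test with 6, whereas Ccng2 ranged from -0.51 to 1.67 and Irs1 from -1.06 to 0.33.

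In DMSO, the levels per kilobase of exon ranked *Insr* (12.8 CPM per kb), *Irs2* (12.5), *Foxo3* (10.6) and *Foxo4* (9.40) highest, and *Sesn3* (2.04), *Foxo1* (1.94) and *Pik3ip1* (1.06) lowest. *Irs1* (5.84), *Ccng2* (5.35) and *Sesn1* (4.74) lay between them. Gene positions below are those of GENCODE M21 on GRCm38.

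**Figure D2:**
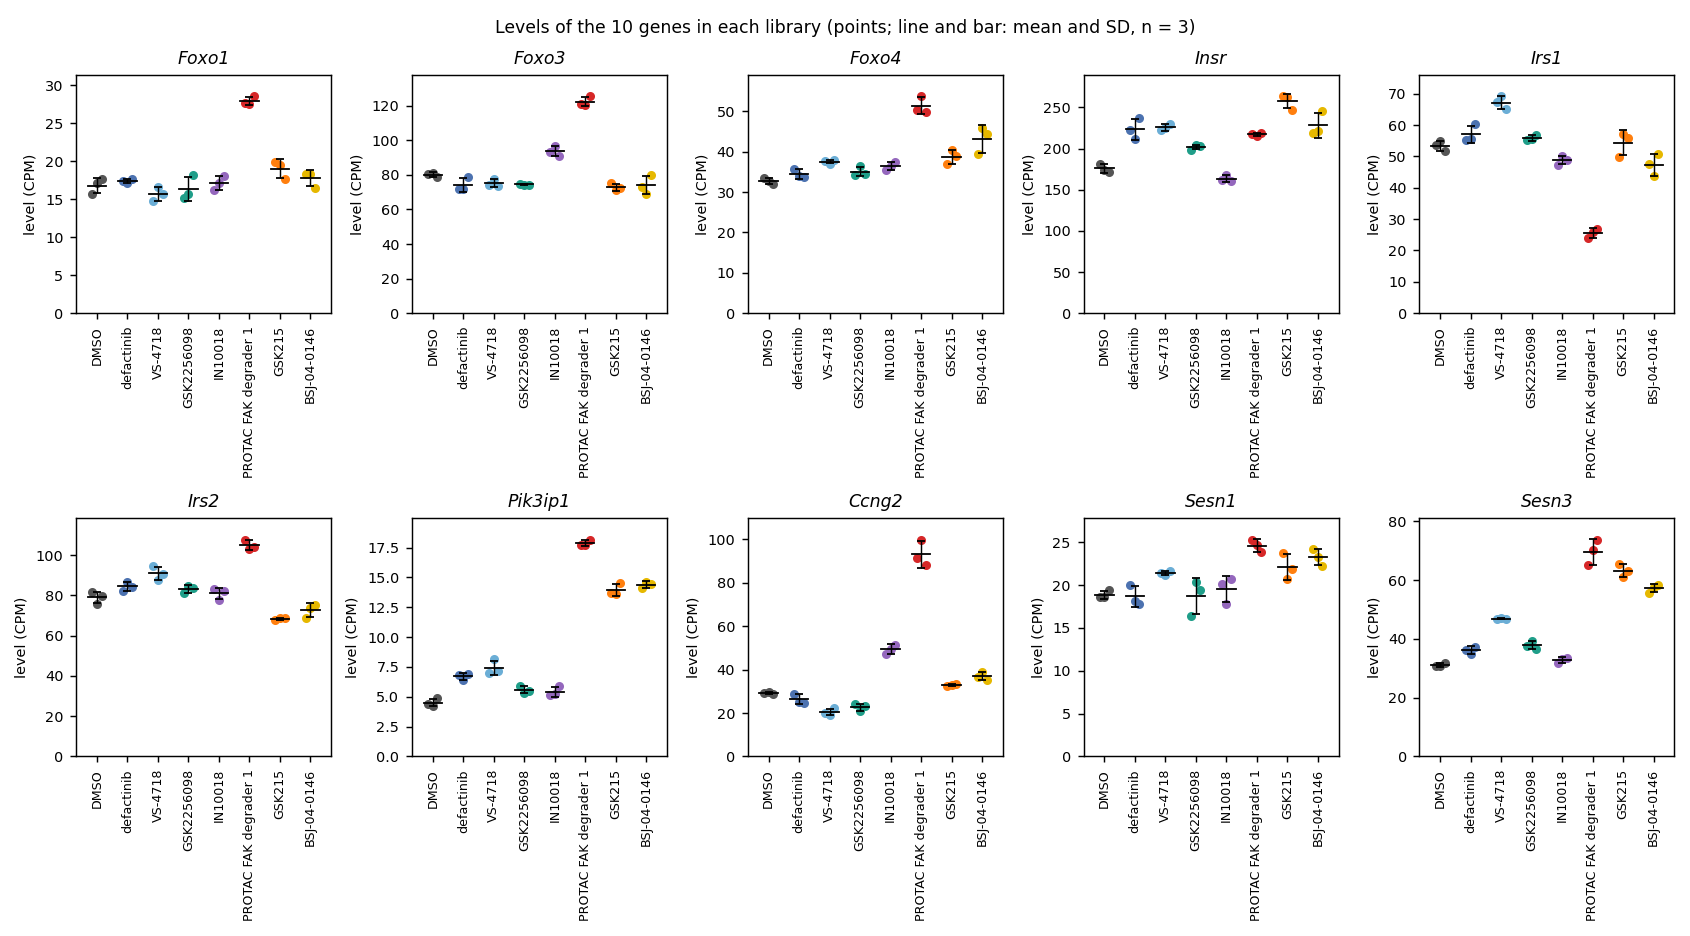
Level (CPM, linear axis from 0) of each gene in each of the 24 libraries by group, with points for libraries and a line and bar for the mean and SD (n = 3). The libraries of PROTAC FAK degrader 1 were above all others for Foxo1, Foxo3, Foxo4, Irs2, Pik3ip1 and Ccng2 and below all others for Irs1. How many of all genes separate in this way is not given here. With this compound 34.1% of all genes rose and 32.7% fell against DMSO.

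All 3 FOXO genes rose with PROTAC FAK degrader 1, by more than with any other compound. *Foxo1* (chr3:52268336-52353221, + strand), which controls glucose and cell cycle genes, had 15.6, 17.1 and 17.6 CPM in the DMSO libraries and 27.7, 27.5 and 28.6 CPM with PROTAC FAK degrader 1. This was a log2 fold change of 0.73 (SE 0.0667, adjusted *P* = 1.62e-12), and the libraries of that compound lay above those of all other groups. The other 7 group means of *Foxo1* ran from 15.6 CPM (VS-4718) to 19.0 CPM (GSK215), and each overlapped its neighbor in that order. *Foxo1* also passed the test with GSK215 (0.17, adjusted *P* = 0.0384), a call that was lost under 6 of 13 alternatives, among them leaving out DMSO library 1 (adjusted *P* = 0.182), DMSO library 2 (0.0536), GSK215 library 1 (0.143) or GSK215 library 2 (0.125).

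*Foxo3* (chr10:42181841-42276755, - strand), a regulator of survival, autophagy and oxidative stress genes, had 80.4, 81.3 and 78.8 CPM with DMSO. It had 121, 121 and 125 CPM with PROTAC FAK degrader 1 (log2 fold change 0.61, SE 0.0406, adjusted *P* = 1.74e-16) and 93.0, 97.0 and 91.1 CPM with IN10018 (0.22, SE 0.0413, adjusted *P* = 0.000192). These 2 groups stood above DMSO without overlap. The 5 other compounds had means below it, at 72.9 to 75.0 CPM, and their libraries overlapped one another. BSJ-04-0146 library 3 (79.8 CPM) lay within the range of the DMSO libraries. Of those decreases, -0.14 with GSK215, -0.12 with BSJ-04-0146 and -0.11 with defactinib passed the test. With library totals in place of TMM scaling they no longer did (adjusted *P* = 0.774, 0.909 and 0.118), and the defactinib call (adjusted *P* = 0.0473) was also lost without any 1 of DMSO libraries 1, 2 and 3 or defactinib libraries 1 and 2 (adjusted *P* from 0.0552 to 0.178). The BSJ-04-0146 call was lost without DMSO library 2 (0.0686), BSJ-04-0146 library 1 (0.0586) or BSJ-04-0146 library 2 (0.217). The decreases with VS-4718 (-0.096, adjusted *P* = 0.0628) and GSK2256098 (-0.11, 0.0938) did not pass in the main fit. VS-4718 passed under 4 of 13 alternatives, among them a fit of the 2 groups alone (0.0316) and leaving out DMSO library 3 (0.0463). GSK2256098 passed under 1, the fit of the 2 groups alone (0.0142).

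*Foxo4* (chrX:101254528-101260873, + strand), an X-linked FOXO gene, rose with 5 of the 7 compounds. It had 33.5, 32.8 and 32.0 CPM with DMSO, 50.5, 53.8 and 49.9 CPM with PROTAC FAK degrader 1 (log2 fold change 0.65, SE 0.0496, adjusted *P* = 9.79e-15) and 39.4, 45.8 and 44.4 CPM with BSJ-04-0146 (0.40, SE 0.0516, adjusted *P* = 1.52e-08). The increases with GSK215 (0.24), VS-4718 (0.20) and IN10018 (0.16) were smaller, and the last one did not pass the test when any 1 of the 6 libraries compared was left out (adjusted *P* from 0.0515 to 0.15). Every treated group had all 3 libraries above the 3 DMSO libraries, defactinib (0.07) and GSK2256098 (0.10) included, although these 2 did not pass the test. From BSJ-04-0146 down to defactinib, each group overlapped its neighbor.

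*Insr* (chr8:3122061-3279617, - strand), the insulin receptor, rose with 6 of the 7 compounds. Its largest increase was with GSK215, whereas PROTAC FAK degrader 1 gave the largest increase for each of the other genes but *Irs1*. It had 181, 174 and 172 CPM with DMSO and 264, 262 and 247 CPM with GSK215 (log2 fold change 0.55, SE 0.0380, adjusted *P* = 1.37e-15), and the GSK215 libraries were above all others. BSJ-04-0146 (228 CPM), VS-4718 (226 CPM), defactinib (224 CPM) and PROTAC FAK degrader 1 (217 CPM) followed and overlapped in that order, with log2 fold changes of 0.38, 0.36, 0.35 and 0.31. GSK2256098 gave 202 CPM (0.20, adjusted *P* = 0.00027). With IN10018 the level was 164 ± 4.00 CPM (SD, n = 3), below all DMSO libraries, and the log2 fold change of -0.10 (95% interval -0.18 to -0.026) did not pass the adjusted threshold (adjusted *P* = 0.0676).

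The insulin receptor substrates, adaptors that carry the signal from the receptor to PI3K, went in opposite directions with PROTAC FAK degrader 1. *Irs1* (chr1:82233101-82291416, - strand) had 53.6, 54.9 and 51.8 CPM with DMSO and 23.9, 26.0 and 27.0 CPM with this compound, 0.48 times DMSO (log2 fold change -1.06, SE 0.0563, adjusted *P* = 1.55e-19). *Irs2* (chr8:10984681-11008458, - strand) had 81.5, 76.0 and 79.6 CPM with DMSO and 108, 103 and 104 CPM with it, 1.33 times DMSO (0.41, SE 0.0385, adjusted *P* = 3.15e-12). For neither gene did the libraries of this compound overlap those of another group, with *Irs1* lowest and *Irs2* highest of the 8 groups.

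With VS-4718, *Irs1* and *Irs2* rose together, *Irs1* to 67.3, 69.2 and 65.0 CPM (0.33, SE 0.0479, adjusted *P* = 4.7e-07) and *Irs2* to 94.5, 87.9 and 90.6 CPM (0.20, SE 0.0382, adjusted *P* = 3.28e-05). Neither gene passed the test with defactinib, GSK2256098 or IN10018, where the 95% intervals of all 6 log2 fold changes lay between -0.23 and 0.20. *Irs2* with defactinib (0.10) did pass with library totals (adjusted *P* = 0.0243) and in a fit of these 2 groups alone (0.0426), and *Irs1* with GSK215 (0.03) passed with library totals (0.15, adjusted *P* = 0.0133). *Irs2* fell with GSK215 to 67.9, 68.7 and 68.6 CPM (-0.21, adjusted *P* = 3.61e-05) and with BSJ-04-0146 to 68.8, 73.9 and 75.3 CPM (-0.12, adjusted *P* = 0.0114), and *Irs1* fell with BSJ-04-0146 to 47.5, 43.7 and 50.7 CPM (-0.18, adjusted *P* = 0.00405). These 3 decreases were no longer past the threshold with library totals (adjusted *P* = 0.0684, 0.829 and 0.293). Both BSJ-04-0146 calls also depended on single libraries, *Irs1* on BSJ-04-0146 library 2 (0.0657 without it) and *Irs2* on DMSO library 1 (0.0565) and BSJ-04-0146 library 1 (0.107).

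*Pik3ip1* (chr11:3330401-3342971, + strand) encodes a membrane protein that binds the catalytic subunit of PI3K and lowers its activity. By edgeR it had the largest increase of the 10 genes with each of the 3 PROTACs. The DMSO libraries held 4.43, 4.25 and 4.86 CPM (98 to 118 counts). PROTAC FAK degrader 1 gave 17.7, 17.7 and 18.2 CPM, GSK215 gave 13.7, 13.6 and 14.5 CPM, and BSJ-04-0146 gave 14.1, 14.6 and 14.4 CPM. All PROTAC libraries lay above all libraries of the other groups, at 3.96, 3.09 and 3.19 times DMSO (edgeR log2 fold changes 1.98, 1.63 and 1.67, SE 0.0832, 0.0875 and 0.0874, adjusted *P* = 8.12e-23, 7.75e-19 and 2.92e-19).

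Among the kinase inhibitors, *Pik3ip1* rose with VS-4718 (7.01, 8.12 and 7.18 CPM, log2 fold change 0.72, adjusted *P* = 4.31e-08) and with defactinib (6.85, 6.37 and 6.93 CPM, 0.58, adjusted *P* = 1.71e-05). On the log2(CPM + 4) scale of limma-trend, which understates changes of a gene at this low level, the differences were 1.08 with GSK215, 1.11 with BSJ-04-0146, 0.42 with VS-4718 and 0.33 with defactinib, all past the threshold. With PROTAC FAK degrader 1 the difference on this scale was 1.36, less than that of *Ccng2* (1.55). With GSK2256098 it had 5.90, 5.34 and 5.51 CPM (0.31, adjusted *P* = 0.0402). This call was lost under 9 of 13 alternatives, including DESeq2 (adjusted *P* = 0.111) and leaving out DMSO library 1 or 2 or GSK2256098 library 1, 2 or 3 (0.0593 to 0.187). IN10018 gave 5.12, 5.21 and 5.86 CPM (0.26, 95% interval 0.0568 to 0.46, adjusted *P* = 0.0989), also above all DMSO libraries. In the annotation the long noncoding gene *Gm12592* lies on the opposite strand of *Pik3ip1* and shares 91 exon bases with it, and the strand setting of the counting is not given in the sources used here. Its level was 2.18 to 2.53 CPM with DMSO, 1.93 to 2.35 CPM with PROTAC FAK degrader 1, 2.94 to 3.35 CPM with GSK215 and 1.71 to 2.36 CPM with BSJ-04-0146, so it was above DMSO with GSK215 and overlapped DMSO with the other PROTACs. Among the kinase inhibitors it was above DMSO with defactinib (2.57 to 2.95 CPM), overlapped DMSO with VS-4718 (2.24 to 2.67 CPM) and GSK2256098 (2.45 to 2.61 CPM) and was below DMSO with IN10018 (1.89 to 2.07 CPM).

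*Ccng2* (chr5:93267257-93276231, + strand) encodes cyclin G2, an unconventional cyclin that goes with exit from the cell cycle, and it separated the compounds most among the 10 genes. DMSO libraries had 29.2, 29.6 and 28.8 CPM. PROTAC FAK degrader 1 raised it to 91.4, 99.8 and 88.0 CPM (3.18-fold, log2 fold change 1.67, SE 0.0552, adjusted *P* = 3.76e-26), and IN10018 raised it to 47.0, 49.7 and 51.4 CPM (0.76, SE 0.0583, adjusted *P* = 2.68e-12). VS-4718 lowered it to 20.0, 19.3 and 22.1 CPM (-0.51, SE 0.0646, adjusted *P* = 2.77e-08).

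GSK2256098 also lowered *Ccng2*, to 24.0, 20.7 and 23.1 CPM (-0.37, SE 0.0646, adjusted *P* = 7.44e-05). With defactinib it had 28.9, 25.1 and 24.7 CPM (-0.16, adjusted *P* = 0.0694), overlapping DMSO, and without defactinib library 1 this difference passed the test (-0.23, adjusted *P* = 0.012). BSJ-04-0146 gave 36.9 ± 1.81 CPM (0.34, adjusted *P* = 1.34e-05) and GSK215 gave 33.0 ± 0.452 CPM (0.18, adjusted *P* = 0.0168), the latter call being lost without DMSO library 3 (0.0538) or GSK215 library 3 (0.0602). *Ccng2* was thus above DMSO with 4 compounds and below it with 2, and no TMM or library total scaling turned these directions.

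The sestrins are stress-induced proteins that hold back mTOR complex 1 (mTORC1). *Sesn3* (chr9:14275067-14333101, + strand), the sestrin best known as a FOXO target, rose with 6 of the 7 compounds. It had 30.7, 30.8 and 31.9 CPM with DMSO and 65.1, 70.2 and 73.8 CPM with PROTAC FAK degrader 1, 65.5, 61.1 and 63.3 CPM with GSK215, and 55.7, 57.8 and 58.3 CPM with BSJ-04-0146. These were log2 fold changes of 1.16, 1.02 and 0.88 (SE 0.0462, 0.0473 and 0.0481, adjusted *P* = 1.57e-23, 6.62e-21 and 1.13e-18), and all PROTAC libraries were above all others. VS-4718 gave 46.8 ± 0.143 CPM (0.59, adjusted *P* = 3.64e-13), GSK2256098 37.9 ± 1.34 CPM (0.29, adjusted *P* = 6.44e-05) and defactinib 36.1 ± 1.34 CPM (0.22, adjusted *P* = 0.00106). GSK2256098 and defactinib overlapped, as did IN10018 (32.8 ± 0.970 CPM, 0.08, adjusted *P* = 0.359) and DMSO.

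*Sesn1* (chr10:41809935-41908424, + strand), which is also a p53 target, rose with 4 of the 7 compounds, by less than *Sesn3* in each. It had 18.6, 18.6 and 19.4 CPM with DMSO, 25.3, 24.7 and 23.8 CPM with PROTAC FAK degrader 1 (0.39, SE 0.0687, adjusted *P* = 5.29e-06) and 24.2, 23.3 and 22.3 CPM with BSJ-04-0146 (0.30, SE 0.0708, adjusted *P* = 0.000375). With GSK215 (0.23, adjusted *P* = 0.00687) the call was lost without GSK215 library 1 (0.059), and with VS-4718 (0.19, adjusted *P* = 0.0262) it was lost without DMSO library 1 or 2 or VS-4718 library 1 or 3 (0.0739 to 0.101). Defactinib, GSK2256098 and IN10018 overlapped DMSO, with 95% intervals between -0.16 and 0.20.

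The compounds used at the same dose were then compared with each other, in 10 pairs among the 5 compounds at 1 μM and 1 pair at 0.1 μM, with *P* values adjusted over all genes and all 11 pairs together. Each difference is the log2 level with the compound named first minus that with the other. Among the kinase inhibitors, the 10 genes differed most often between VS-4718 and IN10018, with 7 past the threshold (41.2% of all genes). The counts were 6 for defactinib and VS-4718 (35.5%), 6 for defactinib and IN10018 (36%), 6 for VS-4718 and GSK2256098 (30%), 5 for GSK2256098 and IN10018 (24.9%) and 3 for defactinib and GSK2256098 (17.9%). Against PROTAC FAK degrader 1 they were 9 for defactinib (66.6%), 9 for VS-4718 (66.5%), 10 for GSK2256098 (65.5%) and 10 for IN10018 (61.4%), and 5 genes differed between GSK215 and BSJ-04-0146 (25.9%).

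**Figure D3:**
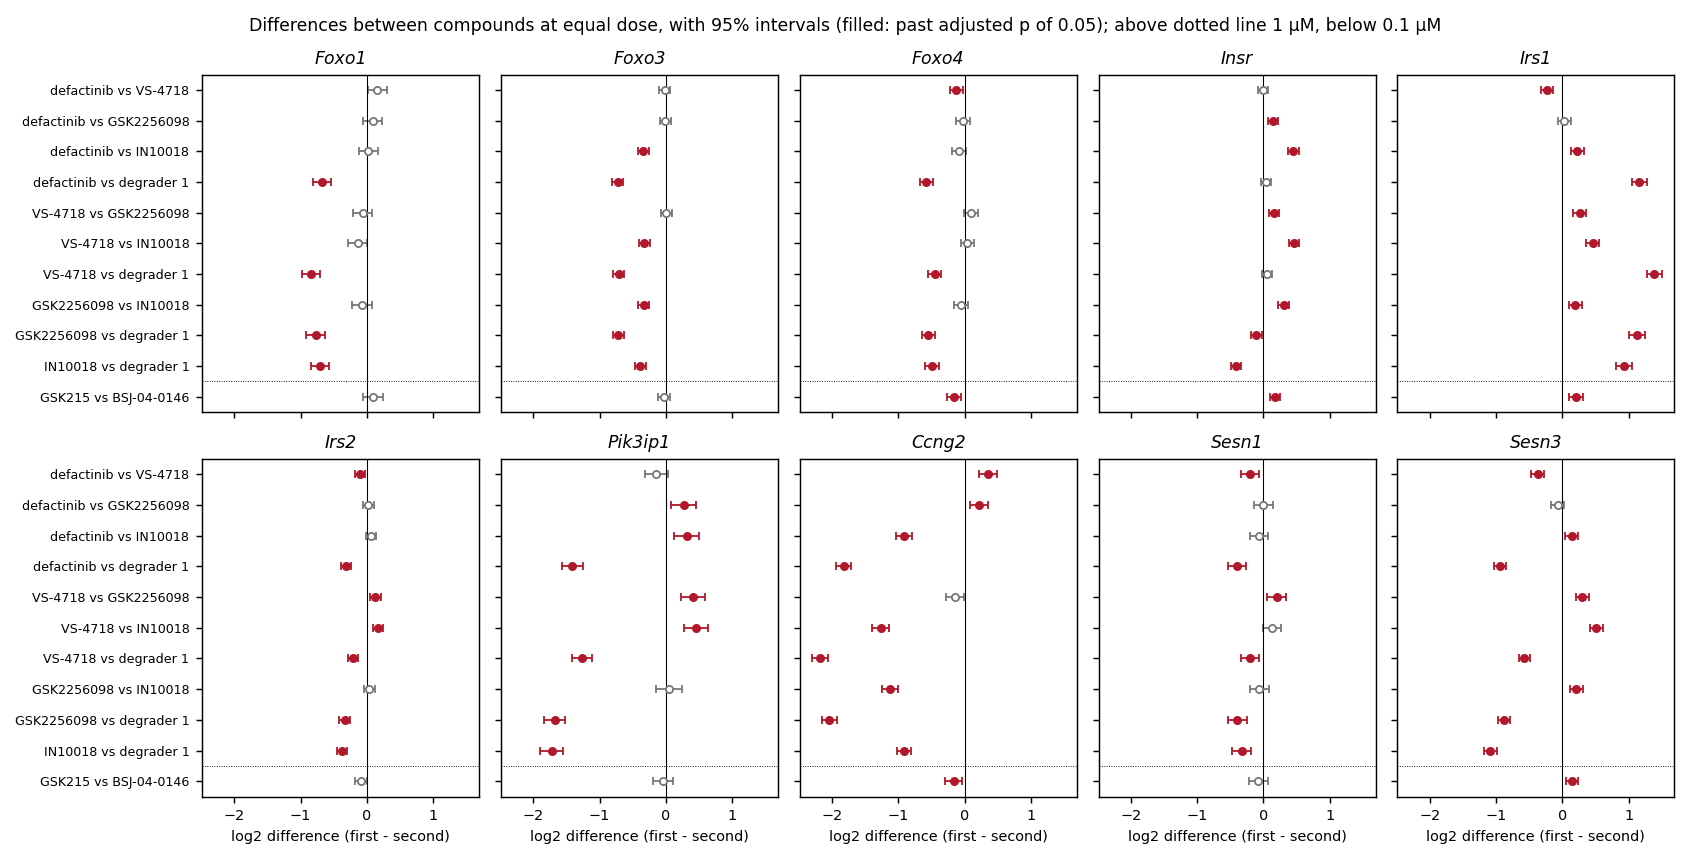
Log2 difference between 2 compounds used at the same dose for each gene (panels), with 95% intervals (bars) and filled points where the adjusted P passed 0.05, pairs at 1 μM above the dotted line and the pair at 0.1 μM below it. Ccng2 was lower with each of the 3 other kinase inhibitors than with IN10018 by 0.91 to 1.27, and Foxo1 passed the threshold in the 4 pairs with PROTAC FAK degrader 1 and in no other.

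*Ccng2* gave the largest differences among the kinase inhibitors. It was lower than with IN10018 in cells given VS-4718 (-1.27, 95% interval -1.39 to -1.14, adjusted *P* = 1.92e-20), GSK2256098 (-1.13, -1.25 to -1.01, adjusted *P* = 7.59e-19) or defactinib (-0.91, -1.03 to -0.79, adjusted *P* = 2.42e-16), with no overlap of libraries. *Insr*, *Sesn3* and *Irs1* went the other way and were higher with defactinib, VS-4718 and GSK2256098 than with IN10018. The smallest of these differences, *Sesn3* with defactinib (0.14, adjusted *P* = 0.0199), was lost without defactinib library 3 (0.108), without IN10018 library 1 (0.0954) and with no filter on low counts (0.0715). For VS-4718 the differences of *Insr*, *Sesn3* and *Irs1* were 0.46 (adjusted *P* = 1.97e-13), 0.51 (6.45e-12) and 0.46 (2.6e-10). *Foxo3* was lower with each of these 3 inhibitors than with IN10018, by differences of -0.34 (defactinib), -0.33 (GSK2256098) and -0.32 (VS-4718).

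VS-4718 and defactinib differed for *Sesn3* (defactinib minus VS-4718 -0.37, 95% interval -0.47 to -0.28), *Ccng2* (0.35, 0.22 to 0.49) and *Irs1* (-0.23), with smaller differences for *Irs2*, *Sesn1* and *Foxo4* that were each lost when some single libraries were left out (3 of the 6 genes passed without defactinib library 3 or VS-4718 library 3). They did not differ past the threshold for *Insr* (-0.013, interval -0.0883 to 0.0624), *Foxo3* (-0.017, -0.10 to 0.0684), *Pik3ip1* (-0.14, -0.32 to 0.0334) or *Foxo1* (0.16, 0.0132 to 0.30). Defactinib and GSK2256098 were the nearest pair in count of calls, differing for *Insr* (0.15), *Pik3ip1* (0.27) and *Ccng2* (0.22), of which 1 remained without GSK2256098 library 2, where *Pik3ip1* (adjusted *P* = 0.0755) and *Ccng2* (0.0881) were lost. For *Foxo1* none of the 6 pairs of kinase inhibitors passed the threshold in edgeR, with 1 of them under an unadjusted *P* of 0.05 (0.033, defactinib and VS-4718, whose libraries did not overlap and which passed without VS-4718 library 2, adjusted *P* = 0.0421) and intervals reaching from -0.28 to 0.30.

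Against PROTAC FAK degrader 1 at the same dose, *Ccng2* was lower with VS-4718 (-2.18, 95% interval -2.30 to -2.07), GSK2256098 (-2.04), defactinib (-1.83) and IN10018 (-0.91, -1.02 to -0.81), and *Pik3ip1* was lower by differences from -1.72 (IN10018) to -1.27 (VS-4718). *Irs1* was higher with the kinase inhibitors than with PROTAC FAK degrader 1, from 0.93 (IN10018) to 1.39 (VS-4718). *Sesn3* differed by -1.08 (IN10018) to -0.57 (VS-4718). *Insr* was the exception, since it did not differ past the threshold from defactinib (0.04, -0.0346 to 0.12) or VS-4718 (0.05, -0.0214 to 0.13).

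At 0.1 μM, the differences between GSK215 and BSJ-04-0146 were all within 0.21 on the log2 scale. *Irs1* (0.21, 95% interval 0.0966 to 0.32, adjusted *P* = 0.00174) and *Insr* (0.18, 0.0978 to 0.25, adjusted *P* = 0.000208) were higher with GSK215. *Sesn3* (0.14, adjusted *P* = 0.0103) was also higher with GSK215, and *Foxo4* (-0.16, adjusted *P* = 0.0144) and *Ccng2* (-0.16, adjusted *P* = 0.0387) were lower, but these 3 calls depended on single libraries. All 3 were lost without GSK215 library 1, where 2 of the 10 genes passed, *Foxo4* and *Ccng2* also without BSJ-04-0146 library 2, *Foxo4* without BSJ-04-0146 library 3, and *Ccng2* without GSK215 library 2 or 3 or BSJ-04-0146 library 1 (adjusted *P* from 0.051 to 0.198). *Pik3ip1* (-0.04, interval -0.20 to 0.11), *Sesn1* (-0.08, -0.22 to 0.0697), *Foxo1* (0.09, -0.0575 to 0.25), *Foxo3* (-0.023, -0.11 to 0.0679) and *Irs2* (-0.09, -0.17 to -0.00132) did not pass.

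The doses of these 2 PROTACs and of PROTAC FAK degrader 1 differ, so their values are set side by side only. *Irs2* was 105 CPM with PROTAC FAK degrader 1 at 1 μM and 68.4 and 72.7 CPM with GSK215 and BSJ-04-0146 at 0.1 μM, with 79.1 CPM in DMSO. *Ccng2* was 93.1, 33.0 and 36.9 CPM in the same order, and *Foxo3* was 122, 72.9 and 74.0 CPM. *Pik3ip1* (17.9, 13.9 and 14.4 CPM) and *Sesn3* (69.7, 63.3 and 57.3 CPM) were above DMSO with all 3.

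The wider PI3K, AKT and mTOR pathway was read in a list of 49 other genes, of which 47 were tested. With the weaker compounds the share of calls was near that of all genes. It was 12.8% higher and 10.6% lower with defactinib (6 and 5 genes, beside 11.4% and 11% of all genes), and 8.51% and 10.6% (4 and 5 genes) with both GSK2256098 (6.36% and 6.09%) and IN10018 (6.44% and 6.85%). With the other compounds it was 44.7% and 38.3% for PROTAC FAK degrader 1 (21 and 18 genes, beside 34.1% and 32.7%), 34% and 36.2% for GSK215 (16 and 17, beside 27.4% and 27.2%), 40.4% and 27.7% for BSJ-04-0146 (19 and 13, beside 27.7% and 26.9%), and 36.2% and 14.9% for VS-4718 (17 and 7, beside 20.4% and 18.9%). Nothing particular to the pathway is read from these counts. List medians lay between -0.0449 and 0.0552, beside the all-gene medians given above.

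Within this list, *Pik3r3*, a regulatory subunit of PI3K, rose with BSJ-04-0146 (7.66 ± 0.354 CPM in DMSO to 22.0 ± 1.31, log2 fold change 1.52), GSK215 (1.28), VS-4718 (0.69), defactinib (0.41) and GSK2256098 (0.29, adjusted *P* = 0.0311, lost under 8 of 13 alternatives), and it was 7.23 CPM with IN10018 and 6.84 CPM with PROTAC FAK degrader 1. *Pik3cb*, a catalytic subunit, fell with BSJ-04-0146 (-0.58), GSK215 (-0.53), PROTAC FAK degrader 1 (-0.48) and defactinib (-0.22). *Inpp5k*, a phosphatase acting on PI3K products, rose with PROTAC FAK degrader 1 (0.87), GSK215 (0.79), BSJ-04-0146 (0.79) and VS-4718 (0.27). *Gab1*, an adaptor, rose with all compounds but IN10018, from 0.21 with defactinib to 0.70 with BSJ-04-0146, and the call with GSK2256098 (0.25) was lost without DMSO library 1 (adjusted *P* = 0.0843) or GSK2256098 library 3 (0.0756). In addition, *Igf1r*, the insulin-like growth factor receptor, rose with defactinib (0.21), GSK215 (0.20) and VS-4718 (0.18) and fell with BSJ-04-0146 (-0.19).

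*Akt1* fell from 378 ± 3.35 to 206 ± 6.87 CPM with PROTAC FAK degrader 1 (log2 fold change -0.88, adjusted *P* = 1.31e-23), with smaller decreases with GSK215 (-0.32) and BSJ-04-0146 (-0.16) and an increase with VS-4718 (0.09). *Sgk1*, a related kinase that also acts on FOXO proteins, fell from 47.2 to 22.5 CPM with PROTAC FAK degrader 1 (-1.07) and rose with VS-4718 (0.17). *Sesn2*, the remaining sestrin, rose with PROTAC FAK degrader 1 (28.7 ± 1.08 CPM in DMSO to 66.8 ± 2.49, 1.22) and with IN10018 (0.33), and it fell with GSK215 (-1.13), BSJ-04-0146 (-0.98), VS-4718 (-0.78) and GSK2256098 (-0.49). *Eif4ebp1*, a translation repressor inhibited by mTORC1, rose with PROTAC FAK degrader 1 (1.12) and IN10018 (0.32) and fell with GSK215 (-0.49). *Sesn2* and *Eif4ebp1* are also known targets of the stress factor ATF4, and *Sesn2* fell with 4 compounds with which *Sesn3* rose. Other genes of the list passed the test as decreases alone. *Deptor*, an mTOR inhibitor, fell with all compounds but defactinib, from -0.14 with IN10018 to -0.53 with PROTAC FAK degrader 1. *Rps6kb1*, the S6 kinase gene, fell with defactinib (-0.13), IN10018 (-0.18), GSK215 (-0.22), BSJ-04-0146 (-0.26) and PROTAC FAK degrader 1 (-0.44). *Mios*, of the GATOR2 complex to which sestrins bind, fell with BSJ-04-0146 (-0.35), GSK215 (-0.28), VS-4718 (-0.24) and GSK2256098 (-0.18, adjusted *P* = 0.0475, lost under 9 of 13 alternatives). *Phlpp2*, an AKT phosphatase, fell with the 3 PROTACs, from -0.14 to -0.29, and with IN10018 (-0.16, lost without IN10018 library 1 or 3), and *Mapkap1*, an mTORC2 subunit, fell with defactinib (-0.21) and PROTAC FAK degrader 1 (-0.12).

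Genes known as FOXO targets other than the 10 were read in a second list of 43, of which 33 were tested. With IN10018, 17 were higher and 0 lower by edgeR (18 and 2 at an unadjusted *P* under 0.05, and 15 and 0 by DESeq2), and with PROTAC FAK degrader 1 26 were higher and 5 lower. As shares of the list these were 51.5% and 0% with IN10018 (6.44% and 6.85% of all genes) and 78.8% and 15.2% with PROTAC FAK degrader 1 (34.1% and 32.7%). GSK215 gave 18 higher and 12 lower (54.5% and 36.4%, beside 27.4% and 27.2%), BSJ-04-0146 gave 20 and 12 (60.6% and 36.4%, beside 27.7% and 26.9%), and VS-4718 gave 13 and 8 (39.4% and 24.2%, beside 20.4% and 18.9%). Defactinib gave 3 and 14 (9.09% and 42.4%, beside 11.4% and 11%), and GSK2256098 gave 1 and 8 (3.03% and 24.2%, beside 6.36% and 6.09%). The median log2 fold change was 0.78 with PROTAC FAK degrader 1, 0.28 with BSJ-04-0146, 0.15 with GSK215, 0.13 with IN10018, 0.0664 with VS-4718, -0.011 with GSK2256098 and -0.0933 with defactinib. With IN10018 the count of 17 fell to between 11 and 14 when 1 library was left out, with 11 without IN10018 library 3. *Trim63* had no counts in DMSO and was set to its bound over a floor of 3 counts per library in these medians, which with its fitted value were 0.0764 with VS-4718 and 0.143 with IN10018 and otherwise the same. Since every gene of this list also answers to other factors, the counts describe the list and not FOXO activity.

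**Figure D4:**
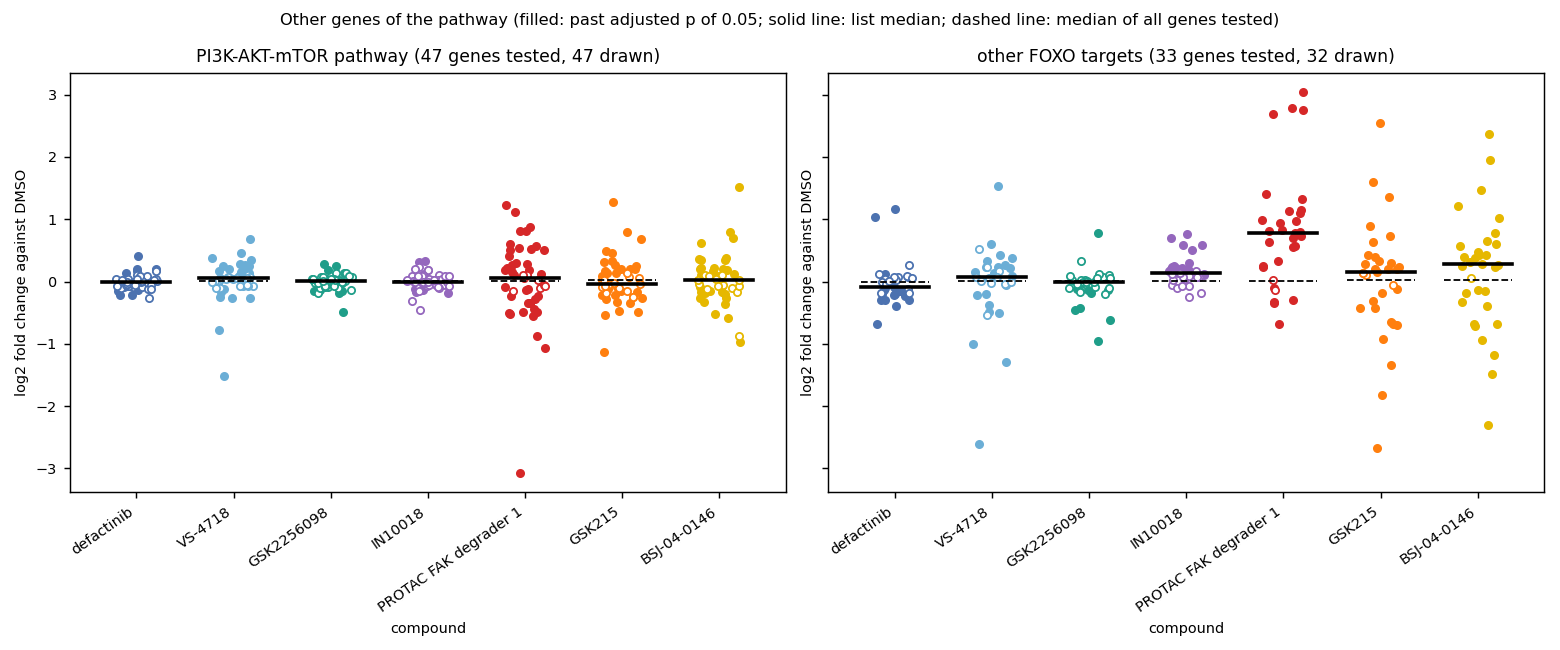
Log2 fold change against DMSO of each gene of the PI3K-AKT-mTOR list (left, 47 genes) and of the list of other FOXO targets (right, 32 of 33 genes, without Trim63, which had no counts in DMSO) with each compound, filled where the adjusted P passed 0.05, with a solid line at the list median (Trim63 at its bound) and a dashed line at the median of all genes. The FOXO target median was 0.78 with PROTAC FAK degrader 1, and the highest point, at 3.04, is Gadd45a.

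*Trib3*, *Gadd45a*, *Bnip3* and *Cdkn1a* of this list rose with some compounds and fell with others, whereas *Erbb3* and *Fbxo32* passed the test as increases alone. *Trib3*, a pseudokinase that binds AKT and is also induced by ATF4, rose from 34.3 ± 2.72 to 237 ± 7.73 CPM with PROTAC FAK degrader 1 (log2 fold change 2.79) and to 51.4 CPM with IN10018 (0.59), and fell to 5.33 CPM with GSK215 (-2.67), 5.64 CPM with VS-4718 (-2.61), 6.94 CPM with BSJ-04-0146 (-2.30), 17.7 CPM with GSK2256098 (-0.95) and 27.9 CPM with defactinib (-0.29). *Gadd45a*, a growth arrest gene, rose from 16.9 to 139 CPM with PROTAC FAK degrader 1 (3.04) and by 0.58 with IN10018, 0.48 with BSJ-04-0146 and 0.23 with GSK215, and fell with VS-4718 (-0.48), GSK2256098 (-0.42) and defactinib (-0.30). *Bnip3*, a mitophagy gene that hypoxia also induces, rose with PROTAC FAK degrader 1 (1.15) and IN10018 (0.69) and fell with the other 5, from -0.40 with defactinib to -1.48 with BSJ-04-0146. *Cdkn1a*, the p21 gene and a p53 target, also rose with PROTAC FAK degrader 1 (16.0 to 40.0 CPM, 1.32) and IN10018 (27.2 CPM, 0.76) and fell with the other 5, from -0.62 with GSK2256098 to -1.82 with GSK215.

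*Fbxo32*, the atrophy ubiquitin ligase atrogin-1, rose with GSK215 (15.7 to 47.8 CPM, 1.60), BSJ-04-0146 (43.4 CPM), PROTAC FAK degrader 1 (0.93), VS-4718 (0.61) and IN10018 (0.24). *Erbb3*, a neuregulin receptor, rose with GSK215 (3.48 to 20.4 CPM, 2.55), BSJ-04-0146 (2.37), VS-4718 (1.53), defactinib (1.03), GSK2256098 (0.78) and PROTAC FAK degrader 1 (0.63). This gene is also 1 of the 13 SC markers, whose sum was above DMSO with the first 5 of these compounds and below it with PROTAC FAK degrader 1. *Ccnd1*, the cyclin D1 gene that FOXO proteins repress, fell with all compounds but IN10018, from -0.10 with defactinib to -0.92 with GSK215 (-0.67 with PROTAC FAK degrader 1). *Adipor2*, an adiponectin receptor, fell with the 3 PROTACs (-0.34 with PROTAC FAK degrader 1, -0.19 with BSJ-04-0146 and -0.11 with GSK215) and rose with IN10018 (0.23). *Cdkn1b*, the p27 gene, rose with PROTAC FAK degrader 1 (0.99), BSJ-04-0146 (0.25), IN10018 (0.22), GSK215 (0.20) and defactinib (0.11, adjusted *P* = 0.0311), a call that was lost when most single libraries were left out (0.0515 to 0.12 where lost). *Trim63*, another atrophy ligase, had no counts in the DMSO libraries and 0.591 CPM with BSJ-04-0146, and is given without a fold.

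Over the 8 group means of log2(CPM + 4), the 10 genes followed a few shapes, described here by Pearson's *r* across groups without a test, since the groups share 1 scaling and 1 group, PROTAC FAK degrader 1, stands far from the rest. *Pik3ip1* and *Sesn3* were the most alike pair (*r* = 0.97), followed by *Pik3ip1* and *Sesn1* (0.94), *Sesn1* and *Sesn3* (0.93) and *Foxo4* and *Sesn1* (0.93). *Irs1* ran opposite to *Ccng2* (*r* = -0.95), *Foxo1* (-0.95) and *Foxo3* (-0.89). Among 10269 other genes with a mean of at least 5 CPM, the pattern most like *Pik3ip1* was that of *Bet1l* (0.996) and *Yipf2* (0.995), most like *Sesn3* that of *Dstyk* (0.998) and *Iqsec2* (0.994), and most like *Ccng2* that of *Rora* (0.983) and *Appl2* (0.981). *Irs1* was matched most closely by *Reep3* (0.993) and *Pnn* (0.993), *Irs2* by *Dyrk2* (0.973) and *Med26* (0.973), and *Insr* by *Timp3* (0.980) and *Mfsd12* (0.969). For the FOXO genes these were *Satb1* and *Ccdc18* (0.994 each) for *Foxo1*, *Ndrg1* (0.994) and *Kdm4b* (0.992) for *Foxo3*, and *Mapk3* (0.997) and *Arvcf* (0.994) for *Foxo4*, and for *Sesn1* *Cog4* (0.988) and *Plekho2* (0.985).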

How the data were processed

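For 24 poly(A)-selected libraries the authors deposited unnormalized counts of reads per gene. The submitters' processing notes name Trimmomatic 0.36, STAR 2.5.2b, featureCounts, Subread 1.5.2 and GRCm38, and the annotation release and strand setting are not given in the sources used here, so counts of genes that overlap another gene (*Foxo1*, *Insr*, *Irs1*, *Irs2*, *Pik3ip1* and *Sesn1*) are less certain. Columns were assigned to groups by the library numbers in the labels. Tests were run with edgeR 4.0.16 under R 4.3.3 (TMM scaling, filterByExpr, glmQLFit and glmQLFTest, 1 fit over the 8 groups with 16 residual degrees of freedom, two-sided). CPM use TMM-scaled library sizes, which set the median gene near no change, and their precision is limited by depths of 14472462 to 27449516 counts. The 10 genes and the gene lists were chosen with earlier results of these data known. Genes of the lists were named where, for a compound, they were among the 2 largest increases or 2 largest decreases past the threshold, averaged 5 CPM or more and did not overlap DMSO. Values with other compounds were then added, though not for every compound. *Trim63* was named after its values were seen. For likeness, the 2 genes with the highest *r* were named for each member. *Castor1* and *Depp1* of the lists were not analysed here. Alternatives were DESeq2 1.42.0, library totals, RLE size factors, no filter, limma-trend (limma 3.58.1) on log2(CPM + 4), the replicate number as a block, fitting 2 groups alone and leaving out each library in turn. The fit was tested on simulated data for defactinib against DMSO over 15291 genes, with 47 or 49 genes changed by each size. It recovered 80.9% and 61.2% of genes changed by 0.5 and -0.5 on the log2 scale, and 83.7% and 91.5% of those changed by 1 and -1. It also called 13 unchanged genes. Far fewer genes were changed than passed in the real comparisons, so these shares do not give the power of the tests here. Replicate pairs differed by more than counting noise (chi-square per degree of freedom 1.80 to 9.44 over 24 pairs), so none was counted as a copy. A planned search of FOXO protein sequences was not run.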

Additional observations from a re-analysis of the deposited data

How the results depend on the processing

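Of the 47 calls against DMSO, 35 held under all 13 alternatives and 12 were lost under at least 1, each named in the report, and of the 76 calls between compounds at equal dose 64 held and 12 were lost under at least 1. Calls gained with library totals were *Irs2* with defactinib, *Irs1* with GSK215 and *Foxo1* with BSJ-04-0146 (0.19, adjusted *P* = 0.0284) against DMSO, and *Foxo4* between VS-4718 and GSK2256098 (0.12, adjusted *P* = 0.0439). *Ccng2* between VS-4718 and GSK2256098 passed without VS-4718 library 3 (adjusted *P* = 0.0228) or GSK2256098 library 2 (0.0211). *Irs2* between GSK215 and BSJ-04-0146 passed without BSJ-04-0146 library 1 (0.0263). With library totals in place of TMM, the all-gene median moved from 0.0211 to 0.143 with GSK215 and from 0.0176 to 0.126 with BSJ-04-0146, with 6190 of 9057 and 6018 of 8984 calls higher in place of 4407 of 8786 and 4451 of 8771. Relative to that median the log2 fold changes of the 10 genes moved by at most 0.001. This follows from the method and tests nothing about the 10 genes, since a change of scaling shifts all genes of a comparison nearly alike. For PROTAC FAK degrader 1 the calls were 6280 of 10738 higher in place of 5484 of 10741, and for VS-4718 4015 of 6409 in place of 3273 of 6303. For defactinib they were 2063 of 3423 in place of 1828 of 3594.

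Counts of calls moved as follows. With only the libraries of both groups, 5 of the 10 genes passed with IN10018 in place of 3, and 2 passed when any 1 library was left out. With no filter on low counts, 3 passed between GSK215 and BSJ-04-0146. Leaving out 1 library at a time gave 3 to 6 genes between defactinib and VS-4718, 1 to 3 between defactinib and GSK2256098 and 2 to 5 between GSK215 and BSJ-04-0146. For the pathway list it gave 6 to 11 with defactinib (6 without DMSO library 1, 7 without defactinib library 3), 4 to 6 with GSK2256098 (4 without DMSO library 1 or GSK2256098 library 1) and 5 to 9 with IN10018 (5 without IN10018 library 1), and for the FOXO targets 11 to 14 with IN10018. Over all genes it gave 1298 to 1622 with GSK2256098, the lowest without GSK2256098 library 3, and 1380 to 1824 with IN10018, the lowest without DMSO library 2 and 1395 without IN10018 library 3. The causes were not tested.

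Signs changed only for differences near 0 that did not pass the test. Library totals gave *Sesn1* 0.00435 with defactinib and 0.00228 with GSK2256098, and *Insr* -0.0226 between defactinib and PROTAC FAK degrader 1. *Sesn1* between defactinib and GSK2256098 was 0.00202 with DESeq2, 0.00208 with library totals, 0.00153 with RLE factors and 0.00322 with limma-trend. Leaving out 1 library at a time, log2 fold changes against DMSO ran from -0.00154 to 0.0792 (*Foxo1*) and -0.0698 to 0.0191 (*Sesn1*) with defactinib, from -0.13 to 0.000707 (*Foxo1*) and -0.081 to 0.073 (*Sesn1*) with GSK2256098, from -0.0207 to 0.064 (*Foxo1*) with IN10018 and from -0.00866 to 0.0827 (*Irs1*) with GSK215. Between defactinib and VS-4718 they ran from -0.0548 to 0.0137 (*Foxo3*) and -0.0481 to 0.0352 (*Insr*). Between defactinib and GSK2256098 they ran from -0.0518 to 0.0168 (*Foxo3*), -0.0537 to 0.00351 (*Foxo4*), -0.0102 to 0.0548 (*Irs1*) and -0.089 to 0.0651 (*Sesn1*). The other ranges were -0.0192 to 0.0602 for *Foxo1* between defactinib and IN10018, -0.00535 to 0.0776 for *Insr* between defactinib and PROTAC FAK degrader 1, -0.119 to 0.012 for *Foxo1* and -0.0149 to 0.018 for *Foxo3* between VS-4718 and GSK2256098, -0.133 to 0.0208 for *Sesn1* between GSK2256098 and IN10018 and -0.0699 to 0.0363 for *Foxo3* between GSK215 and BSJ-04-0146.

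Treated and DMSO libraries with the same replicate number did not deviate together (*r* over 0.1 in 1 of 21 pairs of libraries, 3 for each of the 7 compounds, from -0.183 to 0.153), so the numbers do not pair the samples. With the replicate number as a block, 3473 genes passed with defactinib in place of 3594, and *Foxo3* with defactinib was the call of the 10 genes against DMSO that was lost (adjusted *P* = 0.0543).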
